A study of Bos taurus with 23 samples.

Results

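The genes described here are 4 components of transforming growth factor beta (TGF-beta) superfamily signalling that carry a symbol on the bovine GeneChip: the ligand BMP4, the type I receptors BMPR1A and TGFBR1, and the NODAL co-receptor CRIPTO. All probe sets with these platform symbols were taken, which gave 5 of the 24016 probe sets that are not controls, and 4 of the 9155 genes named by a probe set with 1 symbol. BMP4, TGFBR1 and CRIPTO each have 1 probe set and BMPR1A has 2. The genes were chosen by their log2 values on these same 23 arrays, known to differ between stages, so those values are a description and carry no test.

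Ligands of this superfamily bind a complex of type I and type II receptor kinases, and the type I receptor then phosphorylates SMAD proteins, which move with SMAD4 to the nucleus. BMP4 signals through BMPR1A or BMPR1B and the SMAD1, SMAD5 and SMAD9 branch, while TGF-beta binds TGFBR2 and TGFBR1 and uses SMAD2 and SMAD3. CRIPTO is a membrane-anchored protein that NODAL needs in order to signal through activin receptors and the SMAD2 and SMAD3 branch, and in the mouse it is known from the early embryo and from pluripotent cells.

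The study measured poly(A)+ RNA of bovine oocytes and preimplantation embryos on 23 arrays in 8 groups. There were 3 arrays of in vitro cultured oocytes, for which the labels state no culture conditions or donors. The in vivo series comprised 3 arrays of oocytes from preovulatory follicles of 9 animals at day 0, 3 of zygotes, 2 of 2-cell, 2 of 4-cell and 4 of 8-cell embryos from the oviducts of 24 cows at days 1 to 4, and 3 of morulae and 3 of blastocysts from the uteri of 7 animals at days 7 to 8. The group labelled 8-cell is given as 8- to 16-cell in the series text. All embryos had 1 bull as sire and were pooled by 10 or, for blastocysts, by 5. No strain or genotype of the donors is stated. The labels call arrays of a group biological replicates but do not say that pools came from separate donors, so every p-value measures only the spread between arrays. Donors, collection site and day change with the stage between follicle, oviduct and uterus and cannot be told apart from it there. Values are log2 expression values, and signal at a value under 4 is treated as background.

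The arrays had medians between 3.28 and 3.60. All 7 oocyte markers lay above 4 on every oocyte, zygote, 2-cell, 4-cell and 8-cell array, and all 6 measured blastocyst and trophectoderm markers lay above 4 on every blastocyst array. By the number of markers of other cells above 4 in a list, against the rest of the group, 4 arrays were flagged. In vivo oocyte array 2 had 11 of 17 cumulus and granulosa markers above 4, against 5 to 8 on the other oocyte arrays. The summed level of that list was 13.34 to 13.44 in in vitro and 13.62 to 14.15 in in vivo oocytes. STAR was its highest gene there, at 13.15 to 13.32 in vitro and 13.55 to 13.71 in vivo, and lay at 13.50 to 13.72 in 2-cell embryos. By number above 4, in vivo oocyte arrays 1 and 3 had 5 and 6 markers and the in vitro arrays 6, 6 and 8. In vivo oocyte array 1 also had 3 of 12 blood markers above 4, against 1 on in vivo arrays 2 and 3. Its blood list summed to 8.84 against 6.86 and 6.87, but it was not flagged. The 4-cell array 1 had 9 of 12 blood markers above 4 against 2 on its partner, the 2-cell array 1 had 4 of 8 oviduct and uterine epithelium markers above 4 against 1, and blastocyst array 1 had 4 of these against 2 on the other blastocyst arrays. Values without the 4 flagged arrays are given where they moved a value by over 1.5 times or changed a call. The part of other cells in the results was not tested. The 8-cell arrays formed 2 pairs: arrays 1 and 4 correlated at 0.98 across probe sets and arrays 2 and 3 at 0.96, while the other array pairs lay between 0.90 and 0.91. Their summed marker levels also differed. The oviduct and uterine list summed to 10.99 on 8-cell array 3 and 6.58 on array 2. Its gene LTF was above 4 on 1 of the 8-cell arrays, at 10.94. The blood list summed to 10.86 and 10.62 on arrays 1 and 4 and to 8.53 and 7.90 on arrays 2 and 3. HBB had its highest mean there, 8.92, with values of 7.07 to 10.79. Besides HBB, CD52 was above 4 on all 4 of the 8-cell arrays, CXCL8 on 1 and the other measured blood markers on none. No 8-cell array is among the 4 flagged arrays.

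**Figure D1:**
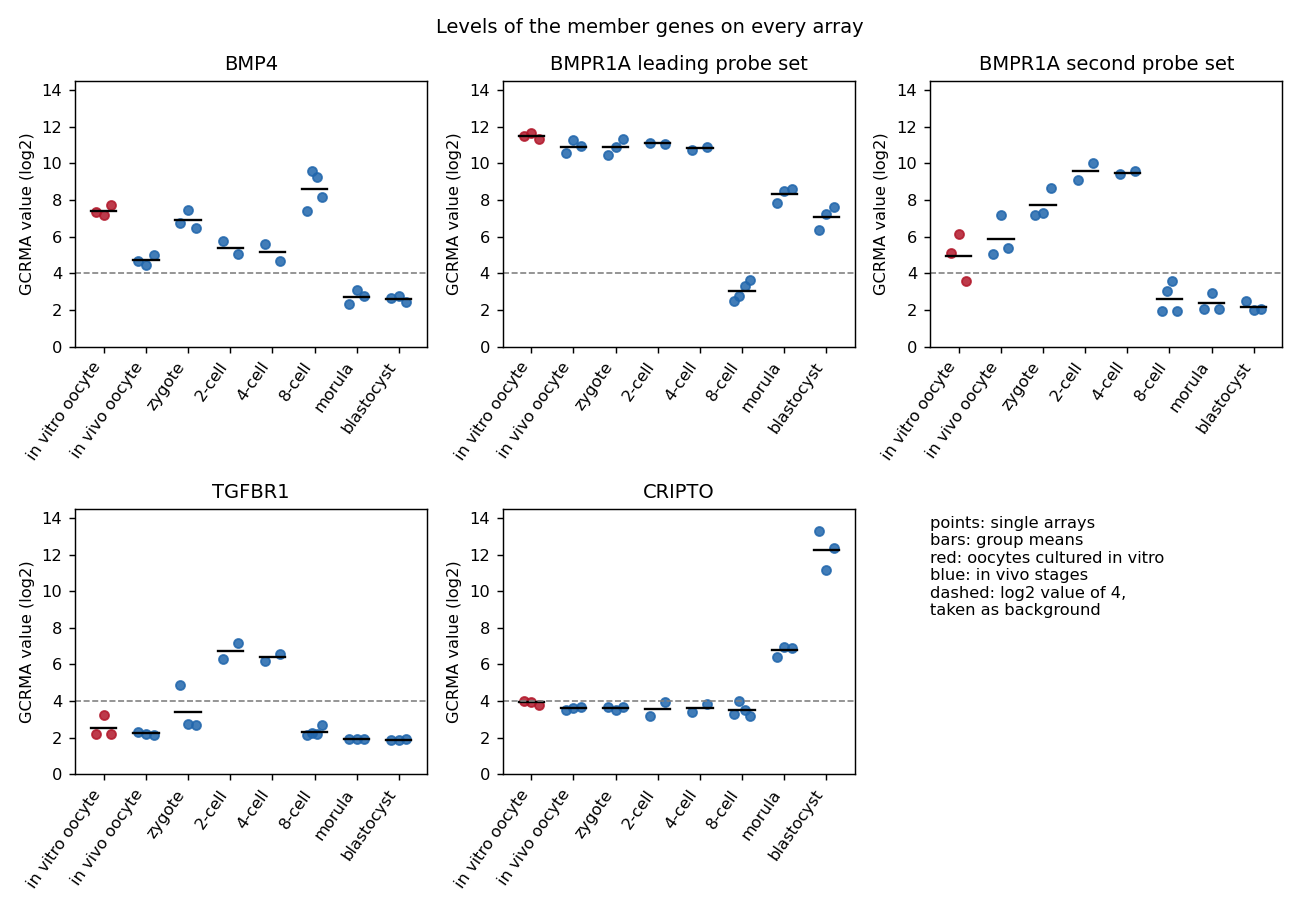
Log2 expression value of the 5 probe sets of BMP4, BMPR1A, TGFBR1 and CRIPTO on each of the 23 arrays, by group in developmental order, with group means and the background level of 4 drawn as lines. BMP4 has its highest group mean in 8-cell embryos, where both BMPR1A probe sets lie below 4, while TGFBR1 is above 4 on every 2-cell and 4-cell array and CRIPTO on every morula and blastocyst array.

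BMP4, a ligand that patterns the mesoderm and the dorsoventral axis in later embryos, was measured above 4 from the oocyte to the 8-cell stage and lay below 4 on all morula and blastocyst arrays. Its log2 values were 7.36, 7.20 and 7.74 on the in vitro oocyte arrays and 4.66, 4.47 and 5.03 on the in vivo oocyte arrays. They were 6.75, 7.47 and 6.46 in zygotes, 5.78 and 5.04 in 2-cell embryos, and 5.61 and 4.68 in 4-cell embryos. The 8-cell arrays gave 7.39, 9.61, 9.24 and 8.19. BMP4 therefore had 2 high phases in vivo, in zygotes and in 8-cell embryos, with lower values on both sides of each. The morula arrays gave 2.31, 3.11 and 2.76 and the blastocyst arrays 2.65, 2.76 and 2.47, all below background.

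The in vitro oocytes had a mean BMP4 value of 7.43 ± 0.28 (SD, n = 3) against 4.72 ± 0.28 (SD, n = 3) in the in vivo oocytes, a difference of 2.71, or 6.54-fold. The 2 groups did not overlap, as was the case for 40.1% of the 14571 probe sets that exceeded 4 on at least 2 arrays. Zygotes (6.89 ± 0.52, SD, n = 3) had a mean above that of in vivo oocytes by 2.17, or 4.51-fold, and the groups did not overlap, as for 16.6% of probe sets. Between zygotes and 2-cell embryos (5.41 ± 0.52, SD, n = 2) it was lower by 1.48 on the log2 scale, a 2.80-fold difference without overlap, which 43.4% of probe sets also showed. The 2-cell and 4-cell values overlapped (4-cell mean 5.14 ± 0.66, SD, n = 2), and 26.1% of probe sets did not overlap there.

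The widest BMP4 steps were at the 8-cell stage. The 8-cell mean of 8.61 ± 1.01 (SD, n = 4) lay 3.46 above the 4-cell mean, an 11.0-fold difference, with the nearest arrays 1.79 apart. No overlap at this step was common, at 68.2% of probe sets. The morula level was at least 24.4-fold lower than the 8-cell level when the morula arrays are set to the background of 4, and 53.3% of probe sets had no overlap at that step. Within the 8-cell group the values of arrays 1 and 4 (7.39 and 8.19) were below those of arrays 2 and 3 (9.61 and 9.24), the same division as in the correlations over all probe sets. In the order of group means, 8-cell embryos, in vitro oocytes and zygotes overlapped with their neighbours, as did 2-cell embryos, 4-cell embryos and in vivo oocytes. The groups were separated between zygotes and 2-cell embryos, and between in vivo oocytes and morulae. Without the arrays that carried markers of other cells the BMP4 means were 4.85 in in vivo oocytes, 5.04 in 2-cell and 4.68 in 4-cell embryos. The zygote to 2-cell difference was then 3.61-fold and the 4-cell to 8-cell difference 15.2-fold.

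BMPR1A, also known as ALK3, is a type I receptor for BMP2 and BMP4. Its leading probe set, the one with the higher mean over all arrays, was high and almost level from the oocyte to the 4-cell stage, lay below background in every 8-cell pool and was measured again in morulae and blastocysts. The values were 11.51, 11.69 and 11.33 in in vitro oocytes, 10.55, 11.30 and 10.94 in in vivo oocytes, and 10.44, 10.91 and 11.32 in zygotes. The 2-cell arrays gave 11.11 and 11.08, the 4-cell arrays 10.76 and 10.90, and the 8-cell arrays 2.50, 2.76, 3.33 and 3.62. Morulae gave 7.84, 8.48 and 8.61 and blastocysts 6.36, 7.27 and 7.65. The 8-cell group was thus the lowest of the 8 and the morula and blastocyst groups lay between it and the earlier stages, with no overlap on either side.

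The leading BMPR1A mean was 10.83 ± 0.10 (SD, n = 2) in 4-cell and 3.05 ± 0.51 (SD, n = 4) in 8-cell embryos, at least 114-fold lower. The morula mean of 8.31 ± 0.41 (SD, n = 3) was at least 19.8-fold above the 8-cell level. From morula to blastocyst (7.09 ± 0.66, SD, n = 3) the mean was 2.33-fold lower and the groups were apart by 0.19, while 33.3% of probe sets did not overlap at that step. The means from in vivo oocytes to 4-cell embryos stayed between 10.83 and 11.09. In vitro oocytes were 0.58 higher than in vivo oocytes, a 1.50-fold difference, with the nearest arrays only 0.03 apart. The blastocyst mean was 14.3-fold below the in vivo oocyte mean, a difference of -3.84 that was -3.28 without the arrays that carried markers of other cells, and 68.8% of probe sets did not overlap in that comparison.

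The second BMPR1A probe set gave another time course. It was at 5.10, 6.13 and 3.61 in in vitro oocytes and 5.04, 7.17 and 5.37 in in vivo oocytes, then at 7.20, 7.28 and 8.65 in zygotes. The 2-cell arrays gave 9.10 and 10.05 and the 4-cell arrays 9.43 and 9.56. The signal was therefore higher in zygotes than in oocytes and higher again in 2-cell and 4-cell embryos, by 3.64 or 12.4-fold between the in vivo oocyte and 4-cell means of 5.86 ± 1.14 (SD, n = 3) and 9.49 ± 0.10 (SD, n = 2). Without in vivo oocyte array 2 that step was 19.5-fold and the step from oocyte to zygote 5.67-fold. This was over the same stages in which the leading probe set stayed level. In 8-cell embryos the values were 1.93, 3.05, 3.58 and 1.96, at least 45.1-fold below the 4-cell level. All morula values (2.07, 2.95 and 2.07) and blastocyst values (2.50, 2.02 and 2.03) also lay below 4, where the leading probe set was measured again.

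The 2 BMPR1A probe sets correlated at 0.69 over the 23 arrays, which share the low 8-cell values, and at -0.20 over the 13 oocyte, zygote, 2-cell and 4-cell arrays. The step from oocyte to zygote was 1.85 in the second probe set and -0.04 in the leading one, and the step from zygote to 2-cell was 1.86 against 0.20. Averaging both probe sets turned the sign of the comparison of in vitro with in vivo oocytes, from 0.58 to -0.16. Both probe sets lay below 4 on all 4 of the 8-cell arrays. Which transcript each probe set reads is not given in the sources used here.

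TGFBR1, also known as ALK5, is the type I receptor for TGF-beta. It was above 4 on 5 of the 23 arrays, which were both 2-cell arrays, both 4-cell arrays and 1 zygote array. The in vitro oocyte values were 2.22, 3.22 and 2.21, the in vivo oocyte values 2.34, 2.21 and 2.18, and the zygote values 4.87, 2.75 and 2.67. The 2-cell arrays gave 6.28 and 7.15 and the 4-cell arrays 6.21 and 6.55. In 8-cell embryos it was back at 2.17, 2.23, 2.21 and 2.67, and morula and blastocyst values ran from 1.88 to 1.92. TGFBR1 RNA was therefore measured in a short window before the 8-cell stage. Among the zygotes only array 1 lay above 4, and the labels give no time for single zygote arrays.

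The mean TGFBR1 value was 6.72 ± 0.61 (SD, n = 2) at the 2-cell stage, at least 5.38-fold above the zygotes (3.43 ± 1.25, SD, n = 3). The 4-cell mean of 6.38 ± 0.24 (SD, n = 2) overlapped with it. The 8-cell mean of 2.32 ± 0.24 (SD, n = 4) was at least 5.21-fold below the 4-cell level. The groups at or below background have no order among themselves. The 2-cell array 1 and 4-cell array 1, which carried markers of other cells, had the lower TGFBR1 value of each pair, at 6.28 and 6.21.

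CRIPTO was above 4 on 7 arrays, all 6 from morulae and blastocysts and 1 of in vitro oocytes at 4.02. From the in vivo oocyte to the 8-cell stage all values lay between 3.17 and 3.99. The morula arrays gave 6.43, 6.97 and 6.92 and the blastocyst arrays 13.29, 11.15 and 12.37. The level was thus higher in morulae than at any earlier stage and higher again in blastocysts. No morula array overlapped with an 8-cell or a blastocyst array, as for 53.3% and 33.3% of probe sets at these steps.

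The CRIPTO mean was 6.77 ± 0.30 (SD, n = 3) in morulae, at least 6.83-fold above the 8-cell embryos. In blastocysts it was 12.27 ± 1.07 (SD, n = 3), another 5.50 or 45.2-fold higher. Set against the in vivo oocytes at background, the blastocyst level was at least 308-fold higher. The blastocyst mean was 11.76 without array 1, which had the highest value. An array of a whole embryo pool does not tell more cells of a type from more RNA per cell, so the share of blastocyst cells with CRIPTO is not known from these values. BMP4 lay below 4 on the same 6 morula and blastocyst arrays.

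**Figure D2:**
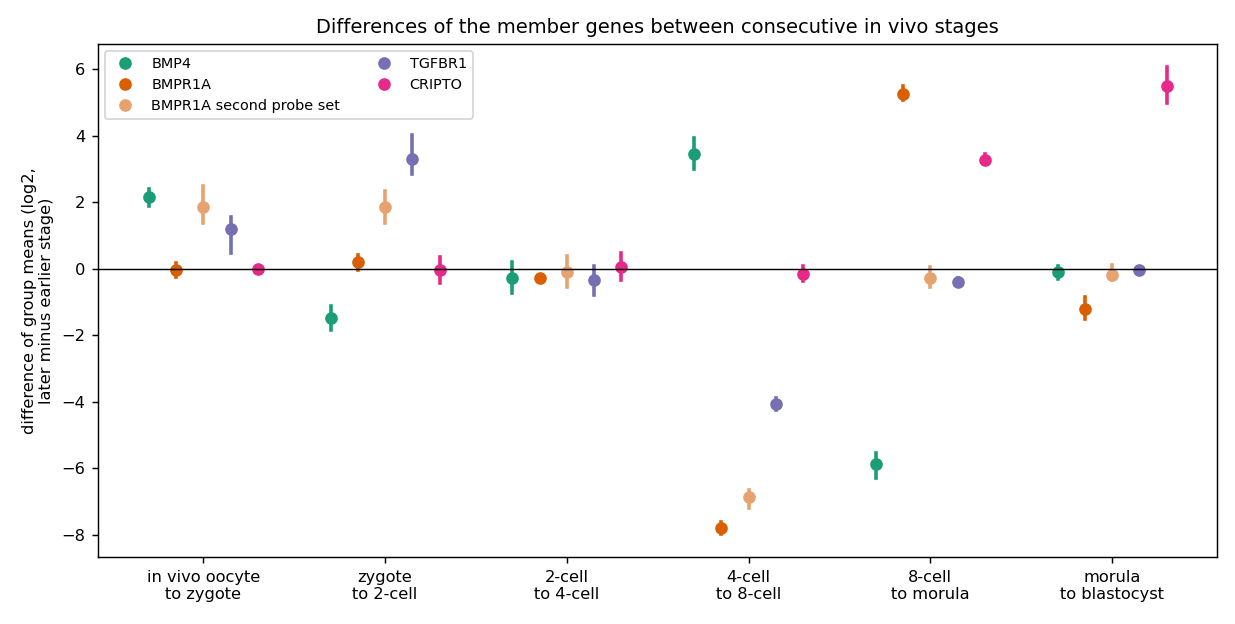
Log2 difference of group means at each consecutive in vivo step for the 5 probe sets, with the range over fits that leave out 1 array. Apart from CRIPTO, each probe set has a wide step between 4-cell and 8-cell embryos, upward in BMP4 (3.46, 11.0-fold) and downward in both BMPR1A probe sets (at least 114-fold and 45.1-fold) and TGFBR1 (at least 5.21-fold), where points of a step into a group below 4 show measured values and not a level above background.

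Other genes with time courses like these were sought over the 14571 probe sets by Pearson correlation across the 23 arrays, which share the groups. Those most like BMP4 were PARD6B, a cell polarity adaptor (r = 0.94), the nuclear receptor NR2F2 (r = 0.92) and CDKN2AIP (r = 0.92), and 14 probe sets had r above 0.9. PARD6B had its highest mean, 10.20, in 8-cell embryos and was 8.65 in in vitro against 6.98 in in vivo oocytes. Those most like the leading BMPR1A probe set were POMP, a proteasome assembly factor (r = 0.99), TMEM128 (r = 0.98) and TMBIM4 (r = 0.98), and 436 probe sets had r above 0.9. For TGFBR1 they were RFX5 (r = 0.95), the AP-1 subunit JUND (r = 0.93) and POLR2A, the largest subunit of RNA polymerase II (r = 0.92), with 22 probe sets above 0.9. For CRIPTO they were EFNA4, an ephrin ligand (r = 0.99), ASB13 (r = 0.99) and MAN2B1, a lysosomal mannosidase (r = 0.98), with 233 probe sets above 0.9.

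**Figure D3:**
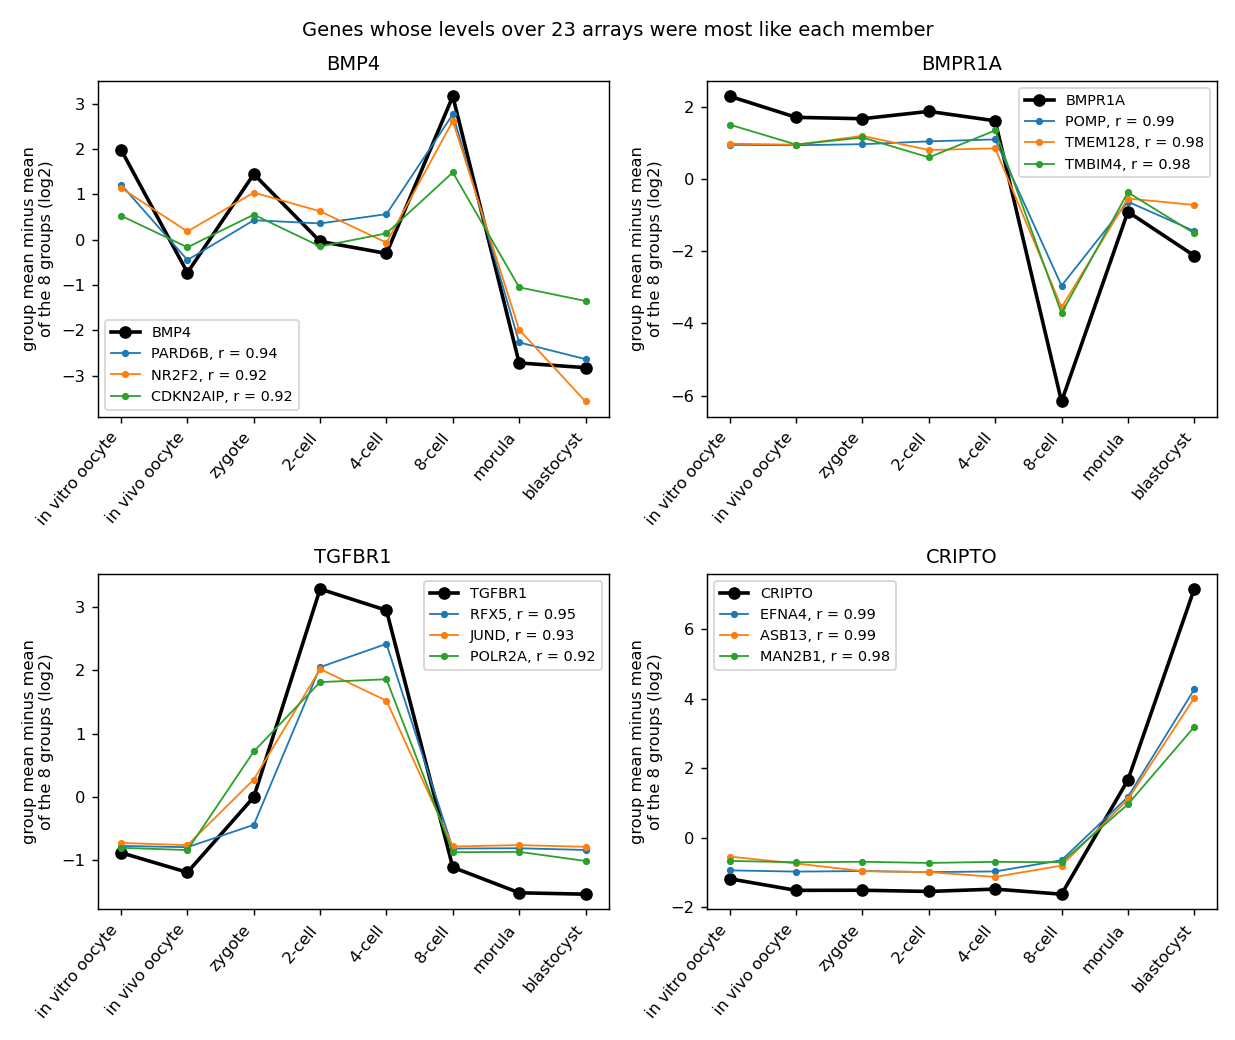
Group means of each member's leading probe set and of the 3 genes with the highest Pearson correlation with it, each as log2 difference from its own mean over groups. The genes nearest to TGFBR1 have their high values in 2-cell and 4-cell embryos, and those nearest to CRIPTO in morulae and blastocysts. This follows from their choice by correlation on the same arrays.

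The rest of the pathway was read from 10 lists of 126 other genes, of which 58 were named on the array and 41 were tested. Each was represented by its probe set of highest mean, and limma was fitted over all probe sets. Of the ligands named on the array, BMP5, BMP7, GDF5, GDF6, GDF7, MSTN, TGFB1, TGFB3 and AMH did not exceed 4 on any array. NODAL carries no symbol on the platform and was not analysed here, so the ligand of CRIPTO has no value.

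The break between 4-cell and 8-cell embryos that marks BMP4, BMPR1A and TGFBR1 was shared by most of the pathway. At that step 11 of the 41 genes rose and 25 fell by limma, while 63.4% of all probe sets passed, 29.8% upward and 33.6% downward. The median difference of the 41 genes was -1.66 against -0.03 over all probe sets. Between 8-cell embryos and morulae 10 genes rose and 15 fell, against 27% and 28.5% of probe sets (55.5% in all), with a median of -0.39 against -0.01. Between the in vivo oocyte and the blastocyst 6 rose and 21 fell, against 32.2% and 32.4% (64.6% in all), with a median of -1.21 against -0.03. Genes below 4 in a group enter these medians with their fitted difference. The 41 genes enter by their probe set of highest mean over all arrays, while the other median and shares take every kept probe set. They are therefore not chosen alike, and the effect of that choice on the medians was not tested.

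Fewer genes passed at the other steps. None of the 41 passed between 2-cell and 4-cell embryos by limma, where 0 also had an unadjusted p under 0.05 and 0.0137% of probe sets passed, 0.00686% in each direction. From in vivo oocyte to zygote 1 rose (ACVR2A), against 2.94% of probe sets, 1.51% upward and 1.43% downward. From zygote to 2-cell 1 fell (ACVR1), against 3.2%, 1.39% upward and 1.82% downward. From morula to blastocyst 1 fell (TGFBI, an extracellular matrix protein induced by TGF-beta), from 10.96 to 8.21 with an adjusted p of 0.0104 by limma, against 8.96% of probe sets, 5.29% upward and 3.66% downward. That call was lost without morula array 2, at an adjusted p of 0.0732, and without the arrays with markers of other cells, at 0.0578. In vitro oocytes had 2 genes lower than in vivo oocytes and none higher, against 7.19% and 1.35% of probe sets (8.54% in all).

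**Figure D4:**
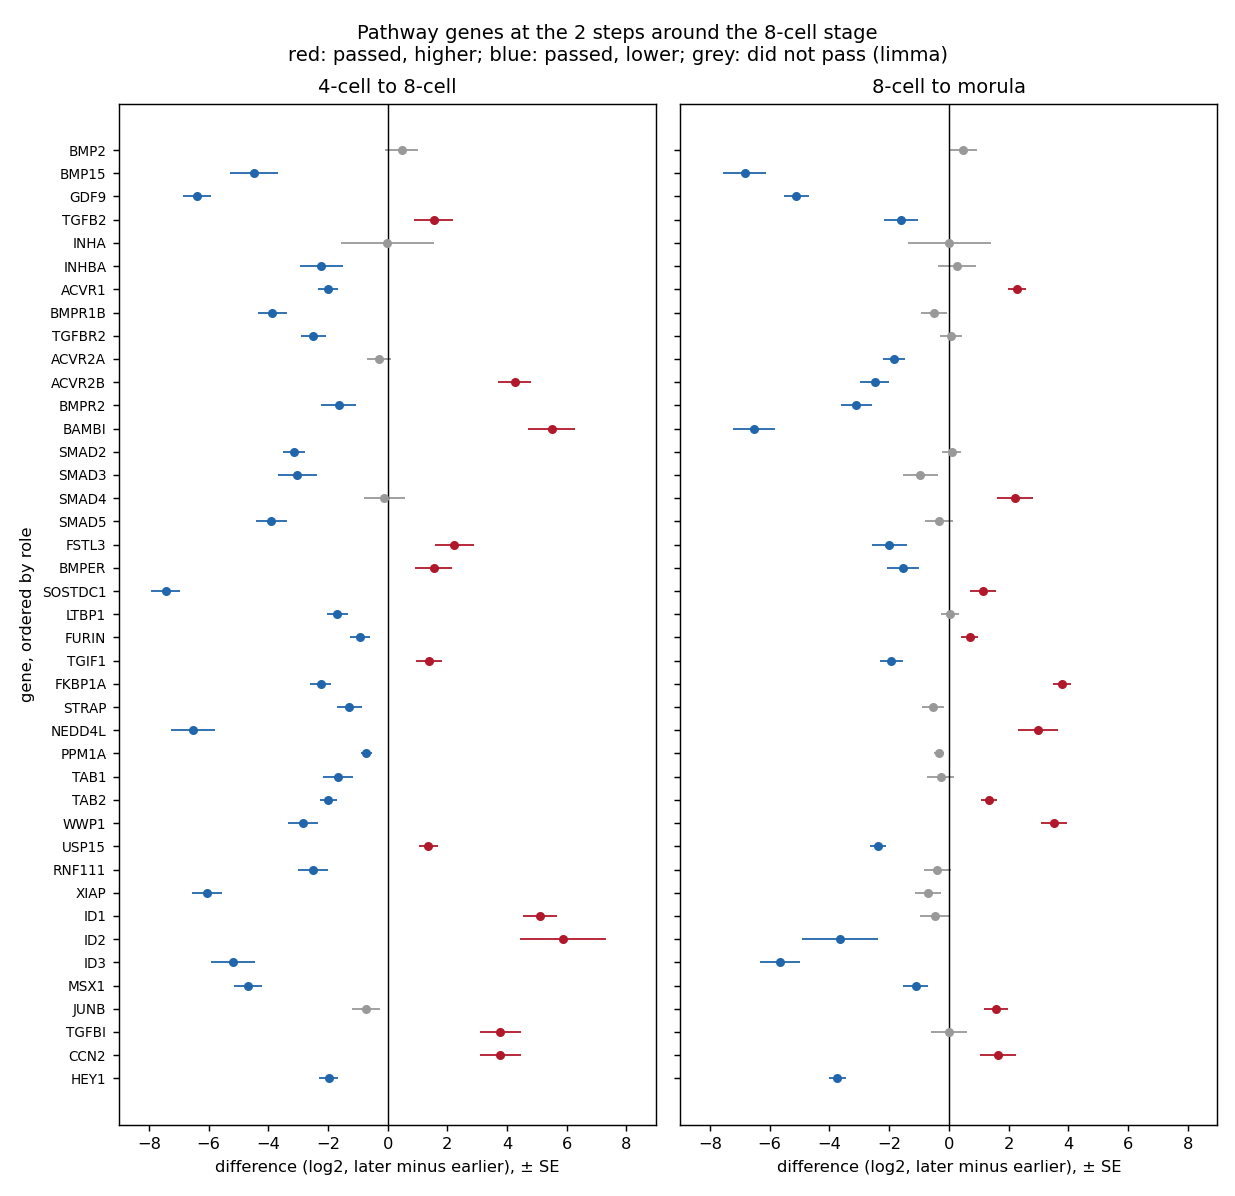
Log2 difference ± SE from limma for each of the 41 other pathway genes, by role, between 4-cell and 8-cell embryos (left) and between 8-cell embryos and morulae (right), coloured by whether the gene passed. Left, 25 genes are lower and 11 higher, and right, 15 are lower and 10 higher.

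Among the other receptors, BMPR1B, BMPR2 and ACVR2A had their highest group mean at the 2-cell or 4-cell stage, as had TGFBR1 and the second BMPR1A probe set. Of all probe sets with a group mean of at least 4, 7.90% were highest in 2-cell and 11.6% in 4-cell embryos. TGFBR1 had an 8-cell mean of 2.32, but ACVR2A was still at 5.33 there and did not pass from 4-cell to 8-cell by limma. BMPR2 gave 5.99 to 6.34 on 8-cell arrays 1, 3 and 4 and 3.81 on array 2. BMPR1B, the alternative type I receptor for BMP ligands, gave 2.21 to 2.61 on the 6 oocyte arrays, 3.95, 3.37 and 4.43 in zygotes, 4.75 and 6.26 in 2-cell embryos and 6.51 and 6.71 in 4-cell embryos. It fell to a mean of 2.75 ± 1.04 (SD, n = 4) in 8-cell embryos, at least 5.83-fold (limma adjusted p 1.04e-06). Its correlation with TGFBR1 over the arrays was 0.89, the highest of the tested pathway genes. BMPR2, the type II receptor for BMP ligands, reached 7.23 ± 0.20 (SD, n = 2) in 4-cell embryos. It was at least 3.02-fold lower in 8-cell embryos (limma adjusted p 0.0214). That call was lost without 4-cell array 1 (0.118), 4-cell array 2 (0.0642) or 8-cell array 2 (0.0572). In morulae BMPR2 lay below 4, at least 3.0-fold under the 8-cell level (limma adjusted p 4.75e-05), or 4.52-fold without 8-cell array 2. Its other probe set had 6.64 in 4-cell and 3.42 in 8-cell embryos. That probe set stood at 2.18 in morulae and did not pass from 8-cell to morula (limma adjusted p 0.151).

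ACVR1 is a type I receptor shared by BMP and activin ligands. Its leading probe set had its highest means in oocytes and its lowest at the 8-cell stage. The leading BMPR1A probe set was also lowest at the 8-cell stage, but almost level from the oocyte to the 4-cell stage. The leading ACVR1 probe set fell from 11.55 ± 0.37 (SD, n = 3) in zygotes to 9.89 ± 0.25 (SD, n = 2) in 2-cell embryos, 3.17-fold (limma adjusted p 0.0150). That call was lost without zygote array 1 (0.0940), 2-cell array 1 (0.124) or 2-cell array 2 (0.0620), and the other ACVR1 probe set stood at 8.02 in zygotes and 8.23 in 2-cell embryos. The leading probe set then fell from 9.42 ± 0.55 (SD, n = 2) at the 4-cell stage to 7.42 ± 0.56 (SD, n = 4) at the 8-cell stage, 4.01-fold (limma adjusted p 4.08e-05), and rose 4.86-fold to the morula (limma adjusted p 2.65e-06). The other ACVR1 probe set fell from 8.41 to 4.60 at the 8-cell stage but stood at 3.48 in morulae (limma adjusted p 0.165 for that step). As with BMPR1A, 1 probe set of the gene returned after the 8-cell stage and the other did not.

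The type II receptors differed in direction at the 8-cell stage. ACVR2B, which binds activin and NODAL, rose from 7.10 ± 0.89 (SD, n = 2) to 11.37 ± 0.46 (SD, n = 4), 19.2-fold (limma adjusted p 1.35e-06), which was 12.4-fold without 4-cell array 1 and 29.7-fold without 4-cell array 2. It then fell 5.58-fold to the morula (limma adjusted p 2.23e-04). TGFBR2, the partner of TGFBR1, fell from 5.76 ± 0.24 (SD, n = 2) to 3.27 ± 0.25 (SD, n = 4), at least 3.39-fold (limma adjusted p 3.04e-05). TGFBR2 had its higher values in oocytes, 6.57 to 8.38, where TGFBR1 lay below 4, and both were above 4 together on the 2-cell and 4-cell arrays and on zygote array 1. ACVR2A, another activin receptor, rose from 4.03 ± 0.15 to 5.51 ± 0.73 (SD, n = 3 each) between in vivo oocyte and zygote. That rise had a limma adjusted p of 0.0408, which ranged from 0.0514 to 0.341 under the alternatives that lost the call. It was lost without any of the in vivo oocyte arrays and without zygote array 1 or 3, reaching 0.211. In morulae ACVR2A lay below 4, at least 2.52-fold under the 8-cell level (limma adjusted p 2.16e-04).

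BAMBI, a pseudoreceptor that lacks the kinase domain and dampens BMP and TGF-beta signals, had its high point in the same pools as BMP4. The 8-cell arrays gave 12.71, 12.86, 13.02 and 12.75, and the 4-cell arrays 7.25 and 7.43. It rose 45.0-fold from a mean of 7.34 ± 0.13 (SD, n = 2) to 12.83 ± 0.14 (SD, n = 4), with a limma adjusted p of 4.93e-06. It then fell 92.1-fold to 6.31 ± 0.08 (SD, n = 3) in morulae, with a limma adjusted p of 1.48e-07. Arrays 2 and 3 were the higher ones in BAMBI as in BMP4, but all 4 BAMBI values lay between 12.71 and 13.02.

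In the oocyte comparison BAMBI and SMAD3 were the 2 genes lower in vitro. Neither passed when any oocyte array other than in vivo array 2 was left out, and 2 genes passed without that array. BAMBI was 7.60, 3.96 and 7.37 on the in vivo and 3.74, 3.31 and 3.86 on the in vitro oocyte arrays, at least 4.97-fold lower in vitro, where all values lay below 4, with a limma adjusted p of 0.0285. The bound was 3.17-fold without in vivo array 1 and 11.2-fold without in vivo array 2. SMAD3, a receptor-regulated SMAD of the TGF-beta branch, was 11.14, 7.16 and 9.89 in vivo and 7.16, 7.05 and 6.98 in vitro, 5.03-fold lower in vitro with a limma adjusted p of 0.0219, which was 2.75-fold without in vivo array 1 and 10.9-fold without in vivo array 2. In both genes in vivo oocyte array 2, which had the most granulosa markers, lay near the in vitro values. Without in vivo array 1 the adjusted p was 0.229 for BAMBI and 0.202 for SMAD3. Without the 4 flagged arrays carrying other markers it was 1.67e-04 and 2.92e-05. That fit kept in vivo array 1, which had 3 of 12 blood markers above 4. The other SMAD3 probe set had means below 4 in both oocyte groups.

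Of the 4 SMAD genes tested, 3 fell at the 8-cell stage and none rose, against 33.6% and 29.8% of all probe sets. SMAD2, of the TGF-beta, activin and NODAL branch, fell from 13.17 ± 0.03 (SD, n = 2) to 10.03 ± 0.48 (SD, n = 4), 8.82-fold (limma adjusted p 3.11e-07), and SMAD3 fell 8.12-fold (limma adjusted p 4.75e-04). SMAD5, of the BMP branch, fell from 6.45 ± 1.26 (SD, n = 2) to 2.55 ± 0.63 (SD, n = 4), at least 5.48-fold (limma adjusted p 2.12e-06). The bound was 10.1-fold without 4-cell array 1 and 2.96-fold without 4-cell array 2. SMAD5 stayed below 4 on every morula and blastocyst array. SMAD4, the partner of both branches, did not pass at that step and rose between 8-cell embryos (6.86 ± 1.46, SD, n = 4) and morulae (9.08 ± 0.42, SD, n = 3), 4.67-fold (limma adjusted p 0.00430), or 2.88-fold without 8-cell array 2 at 4.76.

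Known target genes went both ways, 4 up and 3 down of 8 at the 8-cell stage, against 29.8% and 33.6% of all probe sets. The inhibitors of differentiation ID1, ID2 and ID3 are induced by BMP signals in many cells. ID1 rose from 3.94 ± 0.21 (SD, n = 2) to 9.05 ± 0.83 (SD, n = 4), at least 32.0-fold (limma adjusted p 2.25e-07), and its blastocyst level was at least 28.6-fold above the in vivo oocyte level (limma adjusted p 1.16e-07), or 17.5-fold without blastocyst array 1. ID3 went the other way, from 13.39 ± 0.27 (SD, n = 2) to 8.21 ± 2.07 (SD, n = 4), 36.3-fold (limma adjusted p 5.01e-06), which was 23.3-fold without 8-cell array 1 and 56.3-fold without 8-cell array 2. It lay at 2.52 to 2.75 on morula and blastocyst arrays. The 8-cell ID3 values were 6.29, 10.12, 9.89 and 6.55, so arrays 2 and 3 were high in ID3 as they were in BMP4.

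ID2 gave 12.32, 11.98, 11.23 and 12.31 on the 8-cell arrays but 9.12 and 3.04 on the 4-cell arrays. It rose at least 42.2-fold, a bound that was 249-fold without 4-cell array 1 and 7.14-fold without 4-cell array 2. The limma adjusted p was 0.00141, and 0.132 without 4-cell array 2 and 3.10e-09 without the arrays that carried markers of other cells. Before the 8-cell stage ID2 was above 4 on 3 arrays, in vivo oocyte 2 (7.70), 2-cell 1 (8.48) and 4-cell 1 (9.12). These are 3 of the 4 arrays flagged for such markers. CCN2, a matricellular protein induced by TGF-beta, was higher in blastocysts than in in vivo oocytes by 3.03, or 8.15-fold (limma adjusted p 3.90e-04).

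Of the 4 extracellular inhibitors and latency proteins tested, 2 fell and 2 rose at the 8-cell stage, against 33.6% and 29.8% of all probe sets. In 3 of the 4 the group means lay below 4 at both stages. SOSTDC1, a secreted BMP antagonist and the exception, fell from 10.94 ± 0.14 (SD, n = 2) to 3.51 ± 0.95 (SD, n = 4) at the 8-cell stage, at least 110-fold (limma adjusted p 1.19e-10). All 11 intracellular regulators tested passed at that step, 9 of them downward, against 63.4% and 33.6% of probe sets, including the ubiquitin ligases NEDD4L (at least 82.7-fold, or 131-fold without 8-cell array 3, limma adjusted p 2.60e-07) and XIAP (at least 40.3-fold, limma adjusted p 3.04e-09). Between 8-cell embryos and morulae 4 of the 11 rose and 2 fell, near the 55.5% of all probe sets that passed. In 2 of these genes another probe set passed the other way: TAB2 rose by 1.34 while its other probe set went by -1.33 (limma adjusted p 0.0110), and USP15 went by -2.37 while its other rose by 1.80 (limma adjusted p 1.30e-04). The largest rise was that of FKBP1A, which binds type I receptors and holds them inactive, from 8.55 ± 0.61 (SD, n = 4) to 12.35 ± 0.30 (SD, n = 3), 14.0-fold (limma adjusted p 2.89e-09). The ubiquitin ligase WWP1 rose at least 10.6-fold (limma adjusted p 1.18e-06).

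The oocyte ligands GDF9 and BMP15, which act on granulosa cells and also serve as oocyte markers here, were lower in 8-cell than in 4-cell embryos: GDF9 fell by 6.39 and BMP15 fell by 4.48 on the log2 scale. The limma adjusted p was 7.23e-10 for GDF9 and 7.01e-05 for BMP15, and both lay below 4 from the morula on. The BMP15 difference was 22.3-fold, and 13.3-fold without 8-cell array 1 or 36.7-fold without 8-cell array 3. The BMP4 mean was higher by 3.46 over the same step, and the difference between these ligands was not tested.

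**Figure D5:**
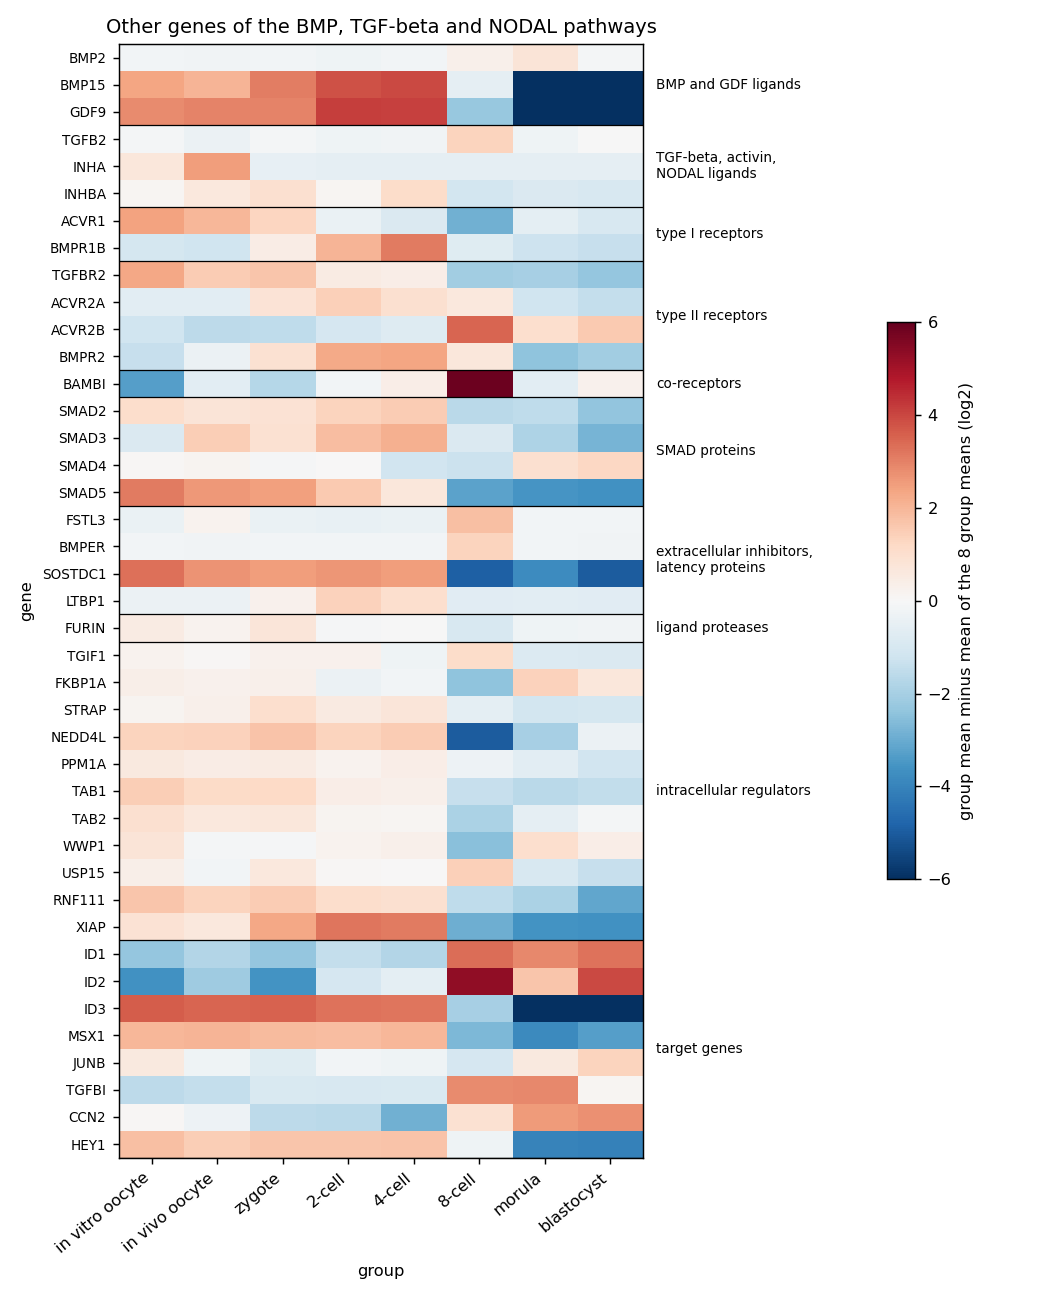
Group mean of each of the 41 tested pathway genes as log2 difference from the gene's own mean over the 8 groups, ordered by role, with colour held constant past the ends of the scale. ACVR2B, BAMBI and ID2 are highest at the 8-cell stage, as BMP4 is. ID1 has a mean of 9.05 there, but also 8.58 in morulae and 8.91 in blastocysts. BMPR1B, BMPR2 and ACVR2A have their highest mean at the 2-cell or 4-cell stage, as TGFBR1 has, though ACVR2A is still at 5.33 in 8-cell embryos. BMPR2 is at 5.99 to 6.34 on 8-cell arrays 1, 3 and 4 and at 3.81 on array 2.

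By group, 38 of the 41 pathway genes had a mean of at least 4 somewhere. Their highest mean lay in in vitro oocytes for 10 genes, in 8-cell embryos for 7 and in 4-cell embryos for 6. Over all 14120 probe sets with such a mean the shares were 18.9%, 22.8% and 11.6%. The genes with their highest mean in 8-cell embryos, where BMP4 has its own, included ACVR2B, BAMBI, ID1 and ID2. Unlike BMP4, ID1 kept overlapping values afterwards, with means of 9.05 in 8-cell embryos, 8.58 in morulae and 8.91 in blastocysts. ACVR2A had its highest mean in 2-cell embryos, as had TGFBR1, and SMAD4 and CCN2 in blastocysts, as had CRIPTO. The shares of probe sets highest in these groups were 7.90% and 15.7%. Unlike TGFBR1, ACVR2A was still above 4 in 8-cell embryos, with a mean of 5.33. Unlike CRIPTO, SMAD4 and CCN2 overlapped between morulae and blastocysts, and had means of 8.31 and 9.88 in in vivo oocytes.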

How the data were processed

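Poly(A)+ RNA of oocytes and embryos was hybridised to 23 bovine GeneChip arrays. The deposited values are log2 expression values per probe set, which the authors made with GCRMA 2.0.0 per the submitters' processing notes. Other settings are not given in the sources used here, and no value was transformed again. Gene symbols are those of the platform annotation, which can be old. The symbols of the 5 member probe sets were the same in a RefSeq table. No genome positions or sequences were used.

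A probe set was tested when it exceeded 4 on at least 2 arrays (14571 of 24016, after 112 controls were left out), and all 5 member probe sets were kept. Tests used limma 3.58.1 under R 4.3.3 (functions lmFit and contrasts.fit, then eBayes with a trend), two-sided, with 8 group means and 15 residual degrees of freedom. The Benjamini-Hochberg adjustment ran over all kept probe sets of each of the 8 comparisons, and an adjusted p under 0.05 passed. The procedure was tested on simulated data. Where an array of the lower group lay below 4, its arrays were set to at least 4 and the fold is given as "at least". A fold is not given where both groups lay below 4. The number of arrays limits the precision.

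The members, the pathway and marker lists and the alternatives were chosen with earlier results of these data known. Pathway genes were named if they passed and were among the 4 largest changes in a direction, or if they were type I or II receptors or SMAD genes. For likeness, the 3 genes nearest to each member were named. The genes named outside this rule were chosen after their values were seen: the markers, the ligands that did not exceed 4, TAB2 and USP15.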

Additional observations from a re-analysis of the deposited data

Results flagged for a closer look

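In the 8-cell group, the only one with 4 arrays, the values of 28 genes or probe sets were examined for an array standing apart by Dixon's criterion (critical value 0.829), which chance meets in about 1 in 20 groups. There were 2. TGFBR1 was 2.67 on array 4 against 2.17 to 2.23 on the others, all below background. BMPR2 was 3.81 on array 2 against 5.99 to 6.34 on the others.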

How the results depend on the processing

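The counts of pathway genes that passed by limma were stable at the steps with many calls and not at those with 1 or 2. With each array left out in turn they were 29 to 36 between 4-cell and 8-cell, 18 to 25 between 8-cell and morula, and 23 to 27 between in vivo oocyte and blastocyst embryos. They were 0 to 2 between in vitro and in vivo oocytes, 0 to 4 from in vivo oocyte to zygote, 0 to 2 from zygote to 2-cell, 0 to 0 from 2-cell to 4-cell and 0 to 2 from morula to blastocyst (unadjusted p under 0.05 in 2 to 6, 4 to 8, 4 to 9, 0 to 2 and 3 to 7 genes). The oocyte comparison gave 1 without a filter, 1 with probe sets averaged, and 0 with the spread of the compared groups alone or with centring on control probes. From oocyte to zygote the count was 0 without a filter, with that spread, or with centring on controls or on the median, then 2 with averaging and 4 without the arrays carrying other markers. From zygote to 2-cell it was 0 with averaging, that spread, centring on controls, or without those arrays. From morula to blastocyst it was 2 with averaging and 2 with that spread. The replicate block gave 2, 1, 1, 0, 34, 21, 1 and 26 in the order of the 8 comparisons. It lost the call of ACVR2A (adjusted p 0.0514) and no other named call. The labels do not say that replicate numbers pair arrays. Deviations from the group means of like-numbered arrays in neighbouring groups correlated at -0.38 to 0.49, with 5 of 18 above 0.1. The 0.49 was between 2-cell and 4-cell embryos. Groups of 2 arrays give the same value for both numbers there, so it cannot decide on a pairing. Centring on controls shifted the median difference of all probe sets by -0.43 from 2-cell to 4-cell, -0.36 from oocyte to blastocyst and 0.12 from oocyte to zygote. Centring on the median shifted it by 0.22 between the oocyte groups and 0.18 from 4-cell to 8-cell. Of the member differences wider than the pooled SD of their 2 groups, 1 changed sign. That of BMPR1A between in vitro and in vivo oocytes was -0.16 with probe sets averaged. Narrower differences also changed sign. That of BMPR1A from in vivo oocyte to zygote went from -0.04 to 0.15 without the arrays carrying other markers.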

Other observations

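The pairs of 8-cell arrays, arrays 1 and 4 against arrays 2 and 3, recurred in several pathway genes, which were picked after their values were seen. ID3 was 6.29 and 6.55 on the first pair and 10.12 and 9.89 on the second. SOSTDC1 was 2.69 on both arrays of the first pair and 4.25 and 4.40 on the second. TGFBI went the other way, with 12.46 and 12.09 against 10.46 and 8.81, as did ID1, with 9.76 and 9.70 against 8.05 and 8.68. In ID3 and SOSTDC1 the second pair lay nearer to the 4-cell values, and in TGFBI and ID1 the first pair lay farther from them. BMP4 was higher on the second pair although its 4-cell values (5.61 and 4.68) were below both pairs. The labels give no stage for single arrays within the 8- to 16-cell range, and no groups were formed from these pairs.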
